A study of Mus musculus with 18 samples.

Results

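The lymphotoxin receptor and NF-κB signalling genes described here are 10 named genes. They include the receptor Ltbr, the kinase Map3k14, and the adaptor Traf3 and the ubiquitin ligase Birc3 that control this kinase. The others are the subunits Relb, Nfkb2, Rela and Nfkb1, the inhibitor Nfkbia and the atypical inhibitor Bcl3. All 10 members were chosen by name, and each was found on 1 line of both deposited tables. The match was by Ensembl identifier among the 55401 lines of the endothelial table and by symbol among the 22612 lines of the EO771 table. All 10 passed the filter on low values in both tables, where 18511 and 11602 genes were tested. The series holds 18 RNA-seq libraries of mouse cells, 3 in each of 6 groups. BEC normal and BEC tumour are blood vessel endothelial cells from the mammary fat pad and from primary EO771 tumours. HEC normal and HEC tumour are high endothelial cells of inguinal lymph nodes, where the tissue of the second is labelled as lymph node metastases. Per the methods of the study, these cells were sorted as CD45-negative, CD31-high cells, with PNAd marking HECs, from wild-type C57BL/6 mice that had or had not been given tumour cells. The methods give the age of the C57BL/6 mice when they were obtained, a matter of weeks, but not when the cells were taken. Any pooling of mice is not given in the sources used here, and BECs and HECs come from different organs, so cell type and organ cannot be told apart. EO771 vehicle and EO771 12-HETE are cultures of the EO771 mouse breast cancer line, given vehicle or the arachidonic acid product 12-HETE. The labels only number the libraries of a group, which the study describes as independent experiments, and the tests measure the spread between these libraries.

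The lymphotoxin β receptor is the member of the tumour necrosis factor receptor family through which stromal and endothelial cells of lymphoid organs receive lymphotoxin and LIGHT from lymphocytes, and it is needed for high endothelial venules to form and to stay mature. In the non-canonical branch of NF-κB signalling, an engaged receptor draws away TRAF3 and cIAP2, the kinase NIK (Map3k14) accumulates, p100 (Nfkb2) is cut to p52, and p52 enters the nucleus with RelB. In the canonical branch, IκBα (Nfkbia) is degraded and releases p65 (Rela) with p50 (Nfkb1), and Nfkbia, Nfkb2, Relb, Birc3 and Bcl3 are themselves known NF-κB targets. Much of this pathway acts on protein stability, which RNA levels do not measure.

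The deposited values summed to 56.4 to 79.4 M per endothelial library and to 17.3 to 18.6 M per EO771 library. Values below are normalised counts (deposited values divided by DESeq2 size factors), given in the order of replicates 1 to 3, and a gene was called where its adjusted p was under 0.05 and its change over 2-fold. Adjusted p-values are from DESeq2's two-sided Wald test with Benjamini-Hochberg adjustment over all genes tested. The endothelial markers Pecam1, Cdh5, Kdr, Tie1, Tek, Erg, Emcn and Cldn5 summed to between 142817 and 217803 in every endothelial library, but Cldn5, a tight junction gene, stood at 15828 to 19545 in BEC normal and at 13.8 to 137 in all other endothelial libraries. Of the leukocyte list, 10 of 10 markers were above 0 in BEC tumour, with sums of 97671 to 129047 against 7497 to 8770 in BEC normal, 33043 to 34688 in HEC normal and 23033 to 24363 in HEC tumour. The HEC sums were nearly all Cd68, with means of 33269 and 23315, whereas Ptprc, the gene of CD45, averaged 662 in BEC tumour and at most 19.0 in the other endothelial groups. The myeloid gene Lyz2 read 61605, 56093 and 38199 in BEC tumour and at most 452 in any other endothelial library. BEC tumour replicate 3 also held the highest sum of epithelial markers, 5682, against 957 to 1217 in the other BEC tumour libraries. Epithelial sums were 246 to 482.5 in BEC normal, 1907 to 2132 in HEC normal and 2034 to 2204 in HEC tumour. The 5 lymphatic endothelial markers summed to 23753 to 24689 in BEC normal and 13537 to 14903 in BEC tumour. In HEC normal and HEC tumour the lymphatic sums were 19252 to 23104 and 22662 to 23463. The 7 stromal markers were highest in BEC normal, with sums of 14350 to 14868 against 2554 to 4685 in BEC tumour, 1547 to 1613 in HEC normal and 711 to 769 in HEC tumour, and the collagen gene Col1a1 averaged 8436 in BEC normal and 48.6 in HEC normal. These sums moved together with every comparison against BEC normal. The part of leukocyte, epithelial, lymphatic and stromal transcripts in the values below was not tested. Fewer cells of a type and less RNA per cell cannot be told apart in such samples. Single high endothelial markers were off in 1 library each: Chst4 read 4.07 in HEC normal replicate 2 against 19906 and 20205 in the others, and Fut7 read 14255 in HEC tumour replicate 3 against 66477 and 65523.

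The promoters that hold the known binding motif of NF-κB are shown here because these members are also possible targets of the pathway. RefSeq promoter windows of 300 bases on GRCm38.p6 were found for 8 of the 10 genes, with more than 1 window for Nfkb2, and the NF-κB consensus, a motif of 10 bases, was searched by name on both strands with overlapping matches kept. It was found in 4.51% of the 32851 windows of all genes and in at least 1 window of 4 members, Nfkb2, Nfkbia, Bcl3 and Traf3. In the sequences, which run 5′ to 3′ along the gene, capitals mark the matches. The Nfkb2 window shown holds 3 matches, of which the first pair overlap.
Nfkb2, chr19:46304487-46304786, plus strand: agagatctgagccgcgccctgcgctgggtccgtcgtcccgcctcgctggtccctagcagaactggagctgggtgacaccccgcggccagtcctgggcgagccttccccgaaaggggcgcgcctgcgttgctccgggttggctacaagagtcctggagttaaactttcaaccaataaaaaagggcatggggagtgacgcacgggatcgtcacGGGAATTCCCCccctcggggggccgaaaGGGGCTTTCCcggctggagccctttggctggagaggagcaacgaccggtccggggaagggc
Nfkbia, chr12:55492598-55492897, minus strand: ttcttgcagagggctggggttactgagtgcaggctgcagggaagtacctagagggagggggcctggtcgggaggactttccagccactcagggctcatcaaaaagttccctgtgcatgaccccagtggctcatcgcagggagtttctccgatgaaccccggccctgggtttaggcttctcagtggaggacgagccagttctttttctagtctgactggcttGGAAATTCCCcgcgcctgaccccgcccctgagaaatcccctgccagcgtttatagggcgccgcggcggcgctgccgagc
Bcl3, chr7:19822706-19823005, minus strand: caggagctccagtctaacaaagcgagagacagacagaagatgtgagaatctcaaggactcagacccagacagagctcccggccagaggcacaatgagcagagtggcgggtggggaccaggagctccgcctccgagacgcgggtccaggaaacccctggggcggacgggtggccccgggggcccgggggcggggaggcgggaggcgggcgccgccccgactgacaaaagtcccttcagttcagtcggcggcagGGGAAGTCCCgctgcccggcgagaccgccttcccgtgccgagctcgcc
Traf3, chr12:111166120-111166419, plus strand: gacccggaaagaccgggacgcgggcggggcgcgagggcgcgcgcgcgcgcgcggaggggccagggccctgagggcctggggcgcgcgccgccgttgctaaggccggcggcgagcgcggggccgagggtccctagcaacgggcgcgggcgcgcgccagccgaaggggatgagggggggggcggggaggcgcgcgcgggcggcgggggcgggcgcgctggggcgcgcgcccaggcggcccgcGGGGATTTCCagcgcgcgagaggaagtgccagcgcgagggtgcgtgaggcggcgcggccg
No match was found in the windows of Ltbr, Map3k14, Birc3 and Rela, which says only that these letters are not in those 300 bases. Matches are a description of sequence and not evidence of binding.

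Between the normal tissues, HECs had more Relb and Nfkb2 RNA and less Traf3 and Bcl3 RNA than BECs. Of the 10 genes, 2 were called higher (Relb and Nfkb2) and 2 lower (Traf3 and Bcl3) in HEC normal against BEC normal, beside 17.1% of all genes tested called higher and 15.1% called lower. By adjusted p alone, 10 of 10 passed, beside 63.3% of all genes. Between the tumour tissues, HEC tumour against BEC tumour, 0 members were called higher (11.2% of all genes) and 1 lower, Bcl3 (10.7%), while 6 of 10 passed by adjusted p alone (54.3%). In HEC tumour against HEC normal, 0 were called higher (4.58%) and 1 lower, again Bcl3 (3.21%), with 4 of 10 past the adjusted p alone (35.4%). In BEC tumour against BEC normal, 0 were called higher (12.4%) and 1 lower, Bcl3 (10.8%), with 8 of 10 past the adjusted p alone (53.7%). The difference between the 2 changes with tumour, tested as an interaction, was called for 0 members in the higher direction (11.2%) and 1 in the lower, Nfkb2 (12.1%), and 6 of 10 passed by adjusted p alone (46.7%). In EO771 cells given 12-HETE, 0 were called higher (2.38%) and 3 lower, Relb, Nfkb2 and Bcl3 (7.79%). By adjusted p alone 8 of 10 passed (47.0%), all of them lower, beside 2813 lower and 2637 higher of the 11602 genes tested. Without EO771 vehicle replicate 3, 511 genes in place of 276 were called higher over the whole table, and members called stayed at 3. The calls over 2-fold in the endothelial comparisons lay within 2 genes of what the shares over all genes give for a list of 10, and nothing is read from them about the members as a group. By adjusted p alone the share of members was above that of all genes in all 6 comparisons, but closely so in some. Examples are 6 of 10 beside 54.3% and 4 of 10 beside 35.4%. All genes tested include lines with low counts, which were not matched to the members, so nothing is read from these shares either. Comparisons that share a group are not independent of each other.

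**Figure D1:**
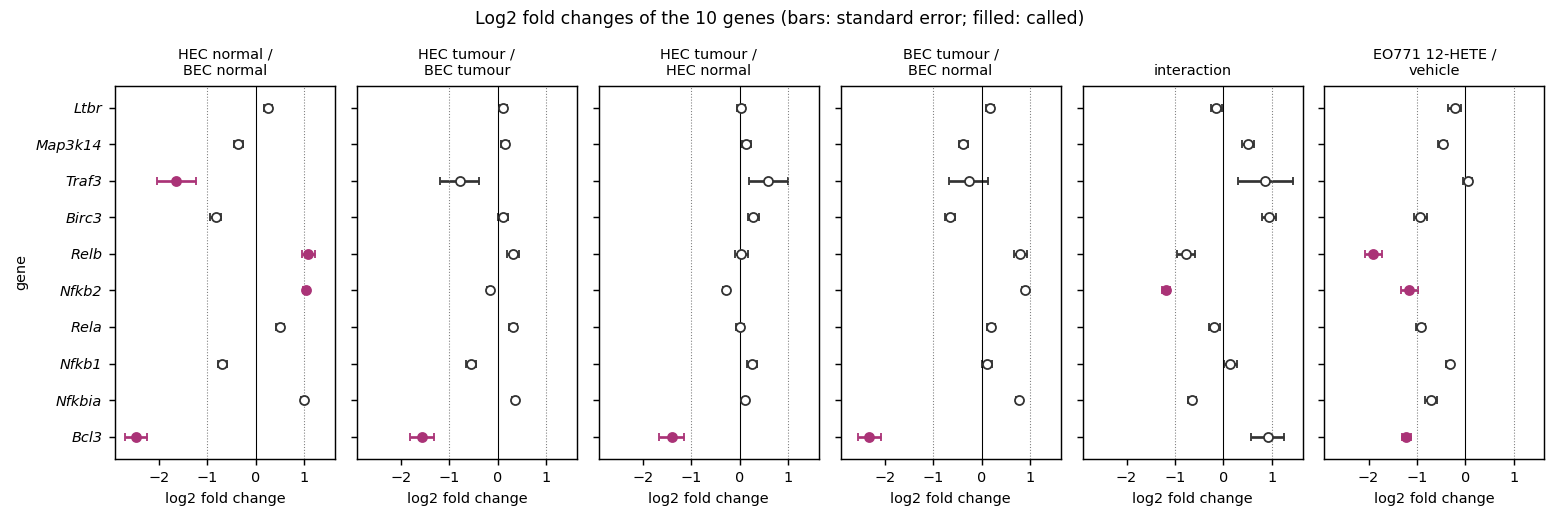
Log2 fold change of each of the 10 genes (rows) in the 6 comparisons (panels), with bars for the standard error and filled points for genes called; dotted lines mark log2 changes of -1 and 1. Bcl3 lies left of -1 in every panel but the interaction, and in EO771 cells Traf3 alone lies right of 0, at 0.05.

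Ltbr (chr6:125306571-125313885, minus strand, 10 exon blocks), the receptor itself, was abundant and nearly level across the endothelial groups. Its normalised counts were 7349, 9140 and 8222 in BEC normal, 8886, 9546 and 9602 in BEC tumour, 9731, 10120 and 9479 in HEC normal, and 10124, 10150 and 9782 in HEC tumour. Every HEC library lay above every BEC normal library, and the ranges of BEC normal and BEC tumour overlapped. HEC normal was 1.19-fold above BEC normal (log2 0.25 ± 0.08 SE, adjusted p = 0.0041) and BEC tumour 1.13-fold above BEC normal (log2 0.18 ± 0.08 SE, adjusted p = 0.0443), both far under a 2-fold change. HEC tumour against HEC normal gave a log2 change of 0.04 with a 95% interval from -0.122 to 0.193. The HEC tumour libraries differed from BEC tumour by a log2 change of 0.10 (adjusted p = 0.297), and the interaction was -0.15 (adjusted p = 0.3).

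The ligand genes had few reads in all of these cells. Ltb, whose product pairs with lymphotoxin α on the cell surface, read 10.6, 7.06 and 8.13 in BEC normal, 47.3, 33.8 and 61 in BEC tumour, 50.7, 57 and 25.8 in HEC normal, and 9.24, 3.95 and 37.6 in HEC tumour. It was called higher in HEC normal (log2 2.37 ± 0.78 SE, adjusted p = 0.00442) and in BEC tumour (log2 2.46 ± 0.77 SE, adjusted p = 0.00364) against BEC normal. Low values of the endothelial libraries recur at a spacing near 3.79, so the BEC normal values are a few steps each. The endothelial Ltb calls here and below rest on such values. Lta, lymphotoxin α, read 0 in all 3 BEC normal libraries and at most 19.3 in any endothelial library, and Tnfsf14, the LIGHT gene, read 0 in the endothelial libraries outside BEC tumour, where 11.1 was its highest value. Neither was tested in the endothelial table. Lymphocyte markers Cd3e and Ms4a1 were at 0 in both HEC groups.

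Map3k14 (chr11:103219762-103267472, minus strand), which encodes NIK, was highest in BEC normal. Its counts were 980, 880 and 974 in BEC normal, 762, 693 and 735 in BEC tumour, 716, 755 and 738 in HEC normal, and 857, 784 and 786 in HEC tumour. BEC normal lay above the 9 other libraries. HEC normal was 1.28-fold lower than BEC normal (log2 -0.36 ± 0.09 SE, adjusted p = 0.000145) and BEC tumour 1.3-fold lower (log2 -0.37 ± 0.09 SE, adjusted p = 9.31e-05), with neither called, and the interaction was 0.51 ± 0.13 (SE, adjusted p = 0.000251). HEC tumour differed by a log2 change of 0.15 from BEC tumour (adjusted p = 0.16) and of 0.13 from HEC normal (adjusted p = 0.263). Of its exons, 135 bases are shared with 1700028N14Rik on the same strand, so reads there could belong to either gene.

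Traf3 (chr12:111166370-111267153, plus strand), whose product holds NIK for degradation, was the member with the widest spread within endothelial groups. It read 3619, 2958 and 1401 in BEC normal, 1574, 1589 and 3477 in BEC tumour, 805, 891 and 861 in HEC normal, and 2031, 896 and 935 in HEC tumour. In the BEC groups and HEC tumour 1 library stood apart from the other pair by more than 2-fold, while the HEC normal libraries lay close together. All HEC normal libraries lay below all BEC normal libraries, and Traf3 fell 3.12-fold between them (log2 -1.64 ± 0.40 SE, adjusted p = 0.000101). In HEC tumour against BEC tumour the log2 difference of -0.78 ± 0.40 SE did not pass (adjusted p = 0.0869). It was called at -1.27 without HEC tumour replicate 1 and was -0.301 without BEC tumour replicate 3. The interaction of 0.86 ± 0.57 SE did not pass (adjusted p = 0.213). It was called, at 1.34, without BEC tumour replicate 3, but was 0.366 without HEC tumour replicate 1. HEC tumour against HEC normal gave a log2 change of 0.59 (adjusted p = 0.261), and BEC tumour against BEC normal gave -0.265 (adjusted p = 0.605).

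Birc3 (chr9:7848699-7873186, minus strand) encodes cIAP2, the ubiquitin ligase that acts with TRAF3. Its counts were 961, 888 and 923 in BEC normal, 613, 563 and 588 in BEC tumour, 564, 513 and 481 in HEC normal, and 627, 681 and 587 in HEC tumour. BEC normal was the highest group, without overlap. Birc3 was 1.78-fold lower in HEC normal (log2 -0.83 ± 0.11 SE, adjusted p = 1.56e-14) and 1.57-fold lower in BEC tumour (log2 -0.65 ± 0.10 SE, adjusted p = 2.02e-09) than in BEC normal, while HEC tumour stood 1.22-fold above HEC normal (log2 0.28 ± 0.11 SE, adjusted p = 0.0263). The interaction, 0.94 ± 0.15 SE (adjusted p = 2.87e-09), was just under the fold limit, and HEC tumour against BEC tumour gave 0.10 (adjusted p = 0.427).

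**Figure D2:**
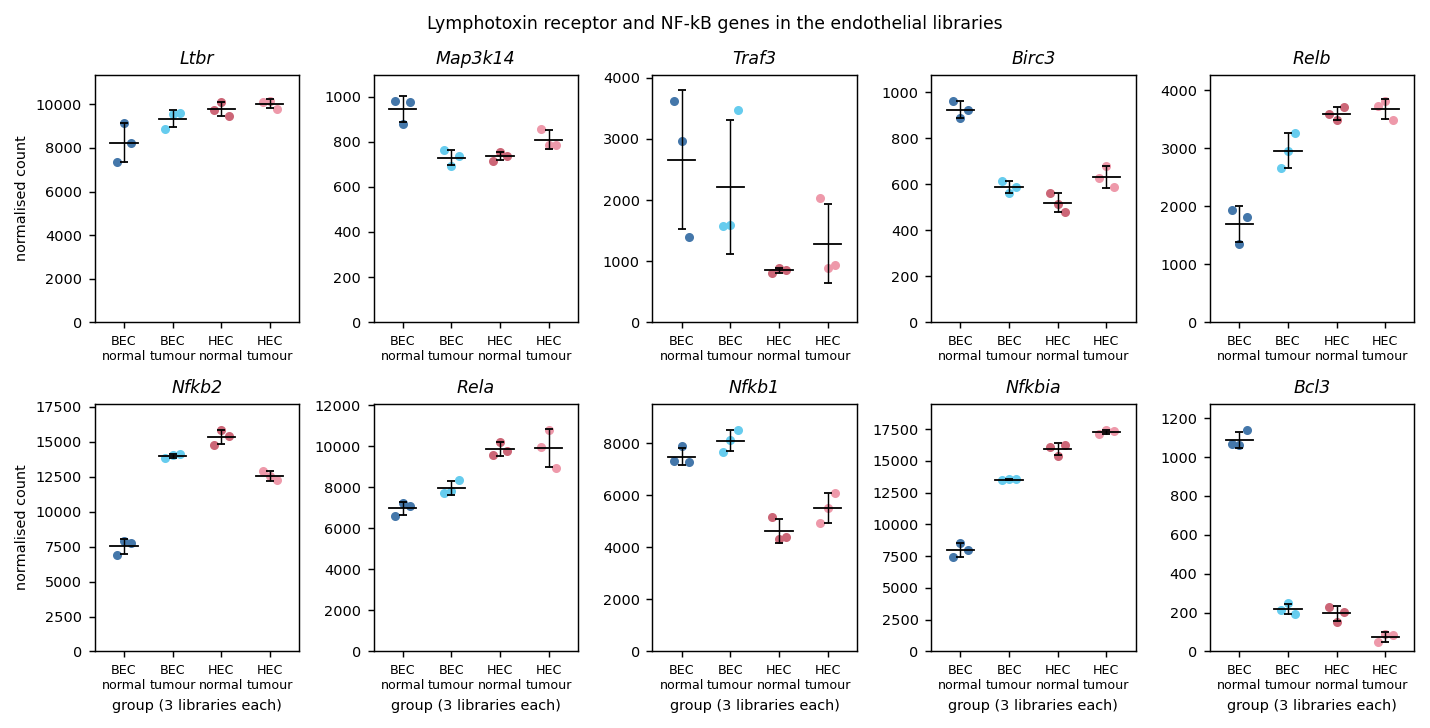
Normalised counts of the 10 genes in the 12 endothelial libraries, 1 point a library, with the mean and SD of each group of 3 in black and each axis starting at 0. Relb, Nfkb2 and Nfkbia stand lowest in BEC normal and Bcl3 highest there, and the Traf3 points of both BEC groups and HEC tumour are spread over more than 2-fold.

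Relb (chr7:19606217-19629438, minus strand), the transactivating subunit of the non-canonical branch, was lowest in BEC normal. It read 1934, 1350 and 1813 there, 2657, 2945 and 3268 in BEC tumour, 3588, 3486 and 3711 in HEC normal, and 3721, 3813 and 3489 in HEC tumour. No library of BEC normal reached any other group, and both HEC groups lay above all BEC libraries. Relb rose 2.11-fold from BEC normal to HEC normal (log2 1.08 ± 0.13 SE, adjusted p = 1.58e-15), but without BEC normal replicate 2, the lowest library, the change was 0.93 and no longer called. BEC tumour stood 1.74-fold above BEC normal (log2 0.80 ± 0.13 SE, adjusted p = 7.82e-09), HEC tumour differed from HEC normal by a log2 change of 0.03 (95% interval -0.226 to 0.289), and the interaction was -0.77 ± 0.19 (SE, adjusted p = 0.000149). HEC tumour stood 1.24-fold above BEC tumour (log2 0.31 ± 0.13 SE, adjusted p = 0.0326).

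Nfkb2 (chr19:46304320-46312385, plus strand), the p100 gene, had its lowest values in BEC normal, like Relb, and stood lower in HEC tumour than HEC normal. It read 6925, 7914 and 7733 in BEC normal, 13827, 14039 and 14131 in BEC tumour, 14787, 15821 and 15401 in HEC normal, and 12933, 12552 and 12228 in HEC tumour. The 4 groups did not overlap. Nfkb2 rose 2.04-fold from BEC normal to HEC normal (log2 1.03 ± 0.06 SE, adjusted p = 3.72e-64), a call lost without BEC normal replicate 1, where the change was 0.97. BEC tumour stood 1.86-fold above BEC normal (log2 0.90 ± 0.06 SE, adjusted p = 9.06e-49), while HEC tumour stood 1.22-fold below HEC normal (log2 -0.29 ± 0.06 SE, adjusted p = 1.27e-05) and 1.11-fold below BEC tumour (log2 -0.16 ± 0.06 SE, adjusted p = 0.0193). The difference between these changes was -1.18 ± 0.08 (SE, log2, adjusted p = 1.38e-42), the 1 interaction called among the 10 genes. Exons of Nfkb2 overlap AC114539.1 over 531 bases and Psd over 299 bases on the opposite strand, and whether counting used strand is not given in the sources used here.

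Rela (chr19:5637483-5648130, plus strand), which encodes p65, read 6599, 7239 and 7072 in BEC normal, 7732, 7812 and 8356 in BEC tumour, 9576, 10221 and 9790 in HEC normal, and 9980, 10777 and 8953 in HEC tumour. The HEC groups lay above the BEC groups without overlap. HEC normal was 1.42-fold above BEC normal (log2 0.50 ± 0.08 SE, adjusted p = 5.62e-10) and HEC tumour 1.24-fold above BEC tumour (log2 0.31 ± 0.08 SE, adjusted p = 0.000177). With tumour, Rela stood 1.14-fold higher in BECs (log2 0.19 ± 0.08 SE, adjusted p = 0.0271), and in HECs the log2 change had a 95% interval from -0.147 to 0.159, with an interaction of -0.19 (adjusted p = 0.158). Nfkb1 (chr3:135584655-135691547, minus strand), the p105 and p50 gene, went the other way. Its counts were 7306, 7890 and 7285 in BEC normal, 7678, 8130 and 8505 in BEC tumour, 5151, 4342 and 4408 in HEC normal, and 4945, 5530 and 6107 in HEC tumour. All HEC libraries lay below all BEC libraries, by 1.62-fold in normal tissue (log2 -0.69 ± 0.10 SE, adjusted p = 8.28e-12) and 1.47-fold in tumour (log2 -0.55 ± 0.10 SE, adjusted p = 9.32e-08). HEC tumour stood 1.19-fold above HEC normal, with overlapping groups (log2 0.25 ± 0.10 SE, adjusted p = 0.0304), while the change in BECs was 0.11 (adjusted p = 0.341) and the interaction 0.14 (adjusted p = 0.428). Neither subunit was called in any endothelial comparison.

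Nfkbia (chr12:55489410-55492647, minus strand), the gene of IκBα, had the highest level per kilobase of exon of the 10 in all 4 endothelial groups. It read 7414, 8544 and 7965 in BEC normal, 13487, 13557 and 13555 in BEC tumour, 16125, 15423 and 16247 in HEC normal, and 17091, 17418 and 17332 in HEC tumour. The 4 groups stood in this order without overlap. The change from BEC normal to HEC normal was 0.999 ± 0.06 (SE, log2, adjusted p = 1.2e-69), just inside the fold limit, and it was called under 9 of 14 alternatives, at 1.04 by edgeR. BEC tumour stood 1.7-fold above BEC normal (log2 0.76 ± 0.06 SE, adjusted p = 7.48e-41) and the interaction was -0.65 ± 0.08 (SE, adjusted p = 3.23e-15). HEC tumour stood 1.28-fold above BEC tumour (log2 0.35 ± 0.06 SE, adjusted p = 1.36e-09), and against HEC normal the log2 change of 0.12 did not pass (adjusted p = 0.0881).

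Bcl3 (chr7:19808462-19822770, minus strand), which encodes a nuclear IκB that binds p50 and p52 dimers, fell in every endothelial comparison apart from the interaction. It read 1067, 1060 and 1138 in BEC normal, 211, 249 and 194 in BEC tumour, 231, 153 and 204 in HEC normal, and 46.2, 90.8 and 84.1 in HEC tumour. BEC normal was the highest and HEC tumour the lowest group, and BEC tumour and HEC normal shared a range. Bcl3 fell 5.55-fold from BEC normal to HEC normal (log2 -2.47 ± 0.23 SE, adjusted p = 1.88e-25) and 4.99-fold from BEC normal to BEC tumour (log2 -2.32 ± 0.23 SE, adjusted p = 1.32e-22). HEC tumour was 2.65-fold below HEC normal (log2 -1.41 ± 0.25 SE, adjusted p = 2.56e-07) and 2.95-fold below BEC tumour (log2 -1.56 ± 0.25 SE, adjusted p = 2.74e-09). The interaction of 0.91 ± 0.34 SE (adjusted p = 0.0187) was under the fold limit. An antisense gene, Gm16175, shares 161 bases of its exons.

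Per kilobase of exon, levels of the members could be set beside each other within a group. In BEC normal the order by normalised count per kilobase was Nfkbia (4953 ± 351 SD), Ltbr (3499 ± 380), Rela, Nfkb2, Nfkb1, Bcl3 (440 ± 17.3), Relb (437 ± 79.4), Traf3, Birc3 and Map3k14 (144 ± 8.54), and the ranges of Bcl3, Relb, Traf3 and Birc3 overlapped from each to the next. In HEC normal Nfkbia (9895 ± 276) and Ltbr (4153 ± 137) again led, and Nfkb2 and Rela overlapped. Relb (925 ± 28.9) stood above Nfkb1 (384 ± 37.3), the reverse of their order in BEC normal. These orders depend on the length used, that of all annotated exons merged, which was 12061 bases for Nfkb1 and 3885 for Relb. Before division by length, the HEC normal counts were higher for Nfkb1 than for Relb. Bcl3 was last in BEC tumour (88.2 ± 11.2), HEC normal (79.2 ± 16.1) and HEC tumour (29.8 ± 9.72).

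In the EO771 cells, 12-HETE was compared with vehicle to ask how the tumour cells respond to the lipid. By adjusted p, 8 of the 10 genes were lower with it, beside 2813 of the 11602 genes tested. Marker sums of the cultures moved too, stromal markers from 6908 to 10859 with vehicle to 18181 to 19009 with 12-HETE, mostly by the proteoglycan gene Dcn, and epithelial markers from 54007 to 70423 down to 37425 to 38126, and their part in these values was not tested. Relb read 1676, 2558 and 1656 with vehicle and 536, 530 and 513 with 12-HETE, and it fell 3.73-fold (log2 -1.90 ± 0.18 SE, adjusted p = 3.22e-24). Nfkb2 read 6136, 9589 and 6365 with vehicle and 3407, 3248 and 3275 with 12-HETE, and it fell 2.22-fold (log2 -1.15 ± 0.17 SE, adjusted p = 3.16e-10). In both genes vehicle replicate 2 was the highest library by a wide gap and no 12-HETE library reached the vehicle range. Without that replicate the Nfkb2 change was -0.925 and no longer called. Bcl3 read 1379, 1367 and 1385 with vehicle and 580, 611 and 586 with 12-HETE, a 2.33-fold fall (log2 -1.22 ± 0.09 SE, adjusted p = 1.81e-38) in which the libraries of each group lay close together.

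**Figure D3:**
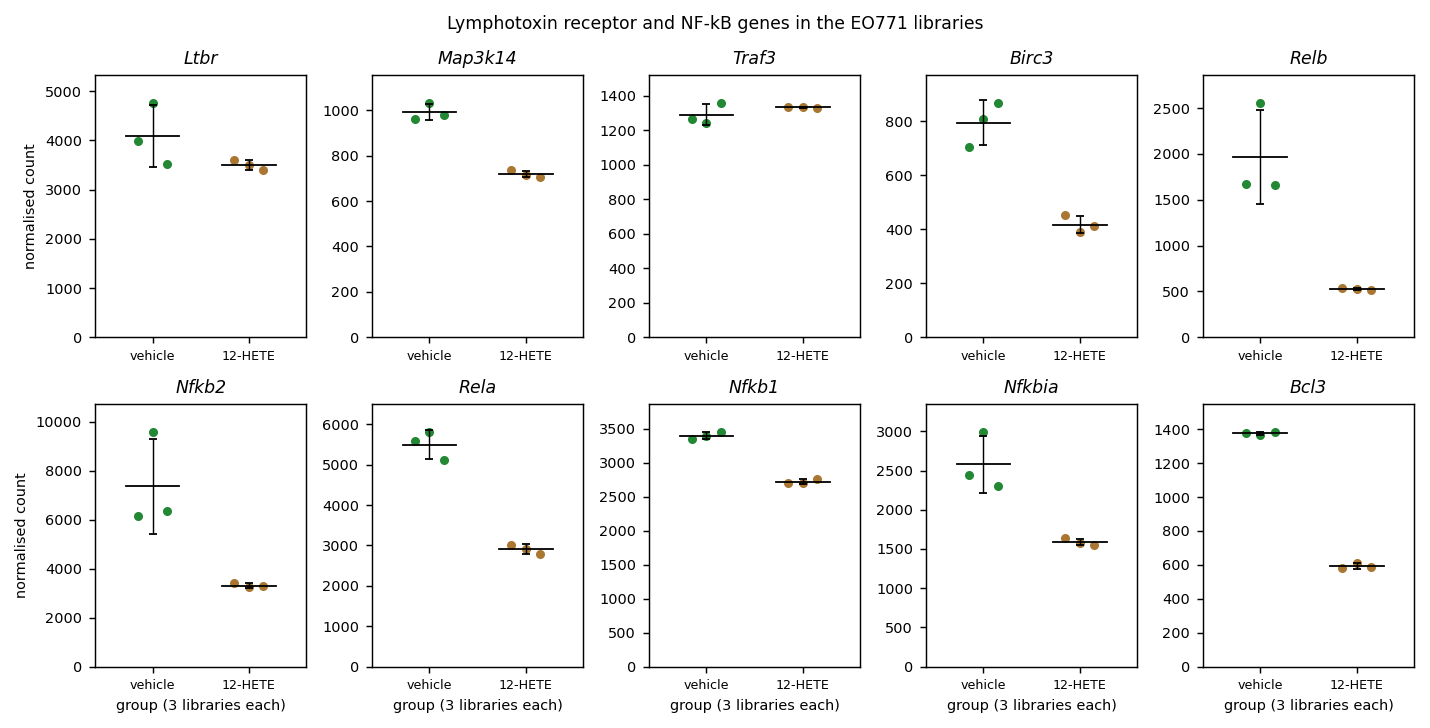
Normalised counts of the 10 genes in the 6 EO771 libraries, 1 point a library, with the mean and SD of each group of 3 in black and each axis starting at 0. The 12-HETE points lie below all vehicle points for 8 genes and overlap them for Ltbr and Traf3. The share of all genes tested that separate in this way was not counted, so nothing is read from the 8. Vehicle replicate 2 is the high point for Ltbr, Map3k14, Relb, Nfkb2, Rela and Nfkbia.

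Rela and Birc3 came close to the fold limit in EO771 cells without being called. Rela read 5578, 5813 and 5106 with vehicle and 3023, 2915 and 2780 with 12-HETE (log2 -0.92 ± 0.09 SE, adjusted p = 4.21e-22). Birc3 read 705, 809 and 868 against 451, 388 and 412 (log2 -0.93 ± 0.13 SE, adjusted p = 3.36e-11), and it was called, at -1.01, without vehicle replicate 1. In both genes all 12-HETE libraries were below all vehicle libraries. Nfkbia read 2443, 2994 and 2300 against 1635, 1580 and 1550 (log2 -0.70 ± 0.12 SE, adjusted p = 1.64e-07). Map3k14 read 963, 1033 and 981 against 735, 714 and 708 (log2 -0.47 ± 0.10 SE, adjusted p = 7.52e-06), and Nfkb1 read 3353, 3395 and 3457 against 2700, 2709 and 2761 (log2 -0.32 ± 0.07 SE, adjusted p = 5.93e-05). These groups did not overlap either, at changes well under 2-fold.

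The receptor and its adaptor were the exceptions in EO771 cells. Ltbr read 3985, 4766 and 3519 with vehicle and 3612, 3500 and 3408 with 12-HETE, with overlapping groups (log2 -0.22 ± 0.13 SE, 95% interval -0.472 to 0.0278, adjusted p = 0.14). Traf3 read 1267, 1244 and 1359 against 1335, 1333 and 1326, also overlapping (log2 0.05 ± 0.09 SE, 95% interval -0.129 to 0.22, adjusted p = 0.699). The ligand gene Ltb fell from 50.5, 85 and 59.4 to 8.22, 1.97 and 3.94 (log2 -3.80 ± 0.54 SE, adjusted p = 2.53e-11), where the lowest values are a few reads. Lta and Tnfsf14 read at most 3.94 and 1.02 in any EO771 library and were not tested.

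Other genes of the pathway, 29 listed, were called in both directions in 3 of the 5 endothelial comparisons. Of 27 tested, 4 were called higher and 2 lower in HEC normal against BEC normal (17.1% and 15.1% of all genes), with a median log2 change of 0.02 beside 0.00463 over all genes tested. Among them Traf1, an adaptor gene induced by NF-κB, rose (log2 2.35 ± 0.20 SE), while Tnfaip3, the gene of the inhibitor A20, fell (-2.35 ± 0.32 SE), as did Traf5 (-1.31 ± 0.12 SE). In BEC tumour against BEC normal 3 were called higher (12.4% of all genes) and 2 lower (10.8%), with a median of -0.05 beside 0.01, with Cyld, a deubiquitinase gene that restrains the pathway, higher (1.25 ± 0.08 SE) and Tnfaip3 lower (-1.42 ± 0.32 SE). In HEC tumour against HEC normal 2 were called higher (4.58%) and 0 lower (3.21%), with a median of -0.02 beside 0.02, Tnfaip3 at 1.39 ± 0.32 (SE) and Ikbkg, the NEMO gene, at 1.13 ± 0.21 (SE), and in HEC tumour against BEC tumour 1 was called higher, Traf1 at 1.05 ± 0.20 (SE), and 0 lower (11.2% and 10.7%, median -0.07 beside 0.01). The change with tumour differed between the cell types for Tnfaip3 (2.81 ± 0.45 SE), Traf5 (1.06 ± 0.18 SE), Cyld (-1.63 ± 0.12 SE), Ltb (-3.85 ± 1.08 SE) and Traf1, 2 called higher and 3 lower (11.2% and 12.1% of all genes, median 0.00229 beside -0.00188). In EO771 cells 0 of 26 tested were called higher (2.38%) and 5 lower (7.79%), with a median of -0.42 beside 0.00117, and Traf1 (-4.84 ± 0.24 SE) and Ltb were the lowest. By adjusted p alone 15 were lower and 1 higher, Map3k7, the gene of the kinase TAK1 (log2 0.31, adjusted p = 0.00923). Of the 11602 genes tested, 2813 were lower and 2637 higher by the same rule.

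**Figure D4:**
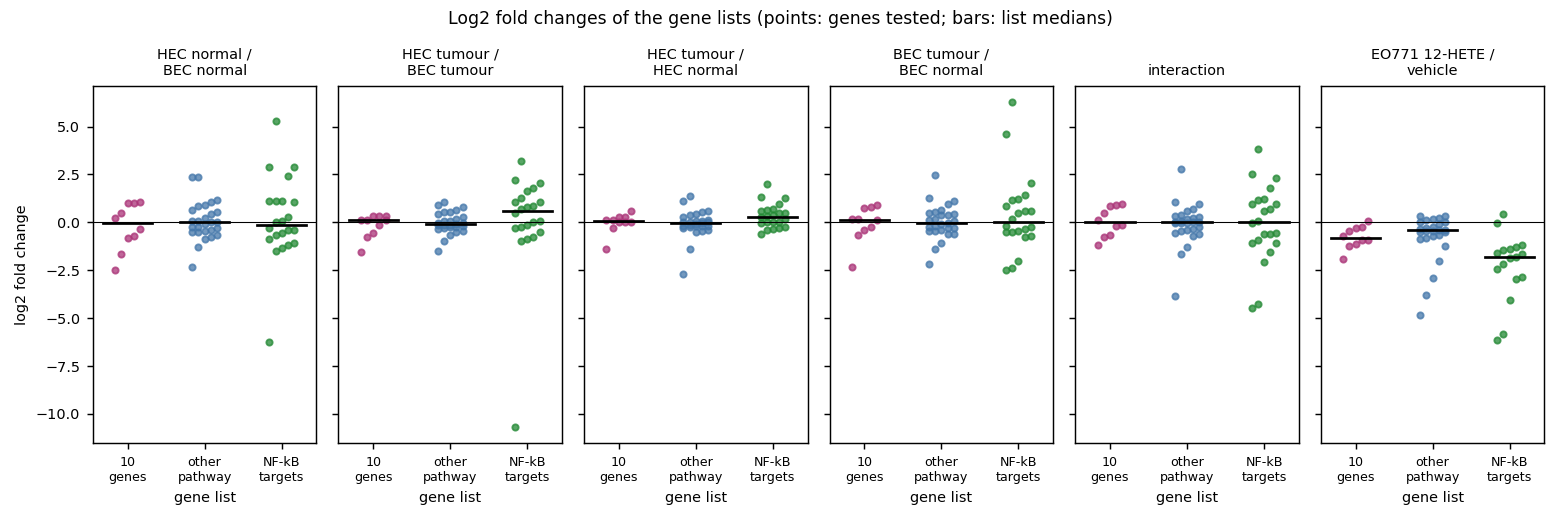
Log2 fold changes of the tested genes of 3 lists, the 10 genes, the other pathway genes and the NF-κB target genes, in the 6 comparisons, 1 point a gene, with black bars for the list medians. The medians stay within 0.6 of 0 in the endothelial panels and are -0.81, -0.42 and -1.79 in the EO771 panel.

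The 22 listed NF-κB target genes were called in both directions in 4 of the 5 endothelial comparisons. In HEC normal against BEC normal 8 were called higher (17.1% of all genes) and 5 lower (15.1%), with a median log2 change of -0.15, or -0.261 with the genes that read 0 in a whole group set to their bound. Cxcl10, a chemokine for T cells, rose from 4725, 5564 and 5355 in BEC normal to 39561, 37387 and 40210 in HEC normal (log2 2.91 ± 0.06 SE), and Cd40 fell (log2 -1.47 ± 0.36 SE, adjusted p = 0.000111). In HEC tumour against BEC tumour 7 were called higher (11.2%) and 1 lower (10.7%), with a median of 0.60. Among those higher were Il6 (2.22 ± 0.30 SE) and Csf2 (3.18 ± 0.76 SE). The gene called lower was Bcl2a1b, listed at 0 in both HEC groups and at 198 to 433 in BEC tumour. In HEC tumour against HEC normal 1 was called higher, Ptgs2, the cyclooxygenase-2 gene (1.28 ± 0.15 SE), and 0 lower (4.58% and 3.21%, median 0.29). In BEC tumour against BEC normal 5 were called higher (12.4%) and 3 lower (10.8%), with a median of 0.01, with the adhesion molecule gene Icam1 higher (2.04 ± 0.14 SE) and Il6 lower (-2.36 ± 0.30 SE). The interaction was called higher for 6 (11.2%) and lower for 4 (12.1%), with a median of 0.01. The highest were Csf2 at 3.82 ± 1.05 (SE) and Il6 at 2.54 ± 0.41 (SE). The lowest were Ccl5 at -2.05 ± 0.14 (SE) and Gadd45b at -1.57 ± 0.14 (SE). In EO771 cells 15 of the 17 tested were called lower (7.79%) and 0 higher (2.38%), with a median of -1.79 beside 0.00117 over all genes. Ccl5 read 225, 476 and 271 with vehicle against 3.08, 5.91 and 4.92 with 12-HETE (log2 -6.12 ± 0.49 SE, adjusted p = 4.14e-34), and Cxcl10 read 3960, 3072 and 4853 against 71.9, 76.9 and 62 (log2 -5.82 ± 0.20 SE, adjusted p = 2.06e-182). The study reports that the lipid also inhibited the interferon response of these cells. Whether the listed genes fell through that response or through NF-κB signalling was not tested.

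Genes known to depend on lymphotoxin in high endothelium and lymphoid stroma, 11 listed, include the enzymes and mucins that make L-selectin ligands. Of 8 tested, 3 were called higher (17.1% of all genes) and 1 lower (15.1%) in HEC normal against BEC normal, and 4 were not called (median 0.40, or 0.791 with bounds). In HEC tumour against BEC tumour 3 were higher (11.2%) and 2 lower (10.7%), with a median of 0.75. Glycam1, a mucin gene that carries the L-selectin ligand, read 40089, 39129 and 40336 in HEC normal and 70900, 71579 and 69695 in HEC tumour, and was listed at 0 in all 6 BEC libraries. Chst2, a sulfotransferase gene, was listed at 0 in all 6 HEC libraries, against 1284, 1598 and 1410 in BEC normal and 111, 134 and 154 in BEC tumour. Madcam1 read at most 27.4 in any endothelial library. With tumour, 0 of 8 were called in HECs in either direction (4.58% of all genes higher and 3.21% lower, median 0.37, or 0.62 with bounds). In BECs 1 was called higher (12.4%), Ccl21a from 0 in all 3 libraries to 25, 27.9 and 60.2. There 2 were called lower (10.8%), Chst2 (-3.43 ± 0.21 SE) and Cxcl12 (-1.01 ± 0.17 SE), at a median of 0, or -0.213 with bounds. The interaction was called higher for Cxcl12 (1.31 ± 0.24 SE, adjusted p = 1.81e-07), 1 of 8 (11.2%), and lower for 0 (12.1%). Its median was 1.17, which includes fitted values of genes at 0 in whole groups. Of the 3 tested in EO771 cells, 1 was called higher (2.38%), Enpp2 (1.26 ± 0.18 SE). Another 1 was called lower (7.79%), Madcam1, from 13.9, 70.7 and 36.9 to at most 1.03.

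Over the 12 endothelial libraries, the genes with the pattern most like that of a member were found among 13290 tested genes with a mean normalised count of at least 100, by the root mean square difference of centred log2 values. For Ltbr these were Psmc2 (0.0423), Mta2 (0.0537) and Trmt112 (0.0553), and the nearest other member was Rela (0.131). For Relb they were Mpp6 (0.133), Dbf4 (0.141) and Nelfe (0.144), with Nfkbia (0.171) the nearest member. For Map3k14 they were Rpap3 (0.0512), Ssr3 (0.0682) and Ube2q1 (0.0704), with Birc3 (0.191) the nearest member. These are descriptions over libraries that share groups and depth.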

How the data were processed

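Per the methods of the study, the authors mapped reads to GRCm38 with STAR, and featureCounts gave the fragments of each gene. The deposited endothelial values were treated as estimated counts: they are whole numbers, but low values recur at a spacing near 3.79, so 1 unit is not 1 fragment. The deposited EO771 values are raw counts per gene symbol. The study calls the EO771 libraries stranded, use of strand in counting is not given in the sources used here, and the labels and the methods name different library kits. Lines with a mean under 10 were left out. DESeq2 1.42.0 (R 4.3.3) was used for 1 fit of the 12 endothelial libraries and 1 of the 6 EO771 libraries, with genes called at an adjusted p under 0.05 and an absolute log2 fold change over 1. These tools were tested on simulated data. Without molecular identifiers, reads are not independent molecules, so errors cover counting and the spread of replicates.

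All members are named in all comparisons. Of other lists, the genes called with the 2 highest and 2 lowest changes and the ligands could be named. Where a gene named had a group at 0, it is given by values, and not every such gene is named. The bound for such a gene took 3 reads in a library as its floor, or 3 steps in the endothelial table. Other genes named beyond this rule were chosen after their values were seen. The members and lists were chosen with earlier results of these data known. Alternatives were edgeR 4.0.16, no filter, another threshold, other size factors, a replicate block, values divided by their step, fits of only the groups compared and leaving out each library. Gene positions and exon lengths are from GENCODE on GRCm38, and promoters are from RefSeq.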

Additional observations from a re-analysis of the deposited data

Results flagged for a closer look

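The change of Nfkb2 with tumour differed between the 2 endothelial cell types, by -1.18 on the log2 scale in the interaction test (HEC change minus BEC change). Nfkb2 stood above its normal level in BEC tumour and below it in HEC tumour, without overlap of the groups, and its exons overlap those of 2 genes on the opposite strand. BEC tumour libraries also held myeloid transcripts, whose part in this difference was not tested.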

How the results depend on the processing

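Of 870 values of members under an alternative, 809 kept their direction and their side of the limits, 45 passed only under the alternative, 11 lost the call and 5 changed sign. The sign changes were in 2 genes that passed no limit there: Rela in HEC tumour against HEC normal was -0.0183 by edgeR and ran from -0.0598 to 0.0724 with each library left out, and Traf3 in BEC tumour against BEC normal, at -0.265, ran from -0.748 without BEC tumour replicate 3 to 0.0184 without BEC normal replicate 1. The cause was not tested. Calls by adjusted p alone gave 11717, 10057, 6554, 9942, 8643 and 5450 genes and 10, 6, 4, 8, 6 and 8 members for HEC against BEC in normal tissue and in tumour, tumour against normal in HECs and in BECs, the interaction, and EO771 cells, in this order. A test against a log2 change of 1 gave, in the same order, 3353, 1688, 169, 2078, 1776 and 411 genes, and 1, 0, 0, 1, 0 and 1 members, since it asks for a larger change. With each library left out, members called ran from 1 to 2 in HEC tumour against BEC tumour, where Traf3 was added without HEC tumour replicate 1, and from 1 to 2 in the interaction, where Bcl3 was added without BEC tumour replicate 2, HEC normal replicate 1 or HEC tumour replicate 1, and Traf3 without BEC tumour replicate 3.

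Of 21 same-numbered pairs of libraries, 3 had deviations from their group means correlated above 0.1 (from -0.0498 to 0.33), and the numbers were not taken to pair the samples. The EO771 pairs read 0.0889, 0.179 and 0.33, which does not settle whether those cultures were paired. With the replicate block 3 members were called in EO771 cells, as in the main fit. The replicate block called 6000, 4063, 1379, 4242, 4224 and 1083 genes in the same order, and it added Nfkbia to the members called in HEC normal against BEC normal, for 5 members. The shallow values of the ligands and the 3 libraries a group limit what small changes could be detected.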
